A study of Mus musculus with 6 samples.

Results

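The 10 transcripts described here are of genes tied to signalling through the ERK kinases. All were read out of a comparison of 2 mouse endothelial cell lines, bEnd.3 and UV2. They were the rows whose symbol was Dusp4, Dusp5, Dusp6, Spry1, Spry2, Spry4, Spred1, Spred2, Etv4 or Etv5, and all 10 were found among the 24411 genes of the table and passed the filter on low counts. The data were bulk RNA-seq of 6 libraries, 3 for each line. bEnd.3, of strain BALB/c, comes from brain endothelium and was immortalised with polyomavirus middle T antigen. UV2, also written UV♀2, is an endothelial line of strain (BALB/c x C57BL/6)F1, and its tissue of origin is not given in the sources used here. Both had been grown to confluence on 10-cm dishes and then kept without serum for 3 days, and were detached with trypsin-EDTA for RNA extraction. Each line is a single culture-adapted line, so line cannot be told apart from strain, tissue of origin or immortalisation. Chromosome Y genes also differed, with a median log2 fold change (UV2 minus bEnd.3) of -10.8 over 4 genes with a log2 CPM above 3. A difference in sex or in chromosome Y content cannot be told apart from line either.

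When growth factor receptors activate RAS, a chain of kinases (RAF, MEK, ERK) carries the signal to the nucleus, and ERK then induces genes that damp the chain again. DUSP phosphatases remove the activating phosphates from ERK itself. Sprouty and Spred proteins act further up, on RAS and RAF. The PEA3 factors Etv4 and Etv5 are ETS-domain transcription factors that are induced by the same signal, and in endothelium the pathway is driven by VEGF and FGF receptors and controls sprouting. Because their transcripts follow ERK activity, several of these genes are used as readouts of it. ERK activity itself was not measured.

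Of the 10 transcripts, 7 were lower in UV2, 1 was higher and 2 did not pass the test (edgeR's quasi-likelihood test, adjusted p under 0.05). Dusp6, Spry4, Etv4 and Etv5 stood furthest apart, with levels in bEnd.3 more than 10-fold above those in UV2, while Spry1, Spry2 and Spred1 were between 2 and 4 times as high in bEnd.3. Dusp5 was higher in UV2, and Dusp4 and Spred2 had overlapping values. The lines differed widely: of the 12720 tested genes 67.1% were called, made up of 33.3% lower and 33.9% higher in UV2. Non-overlapping values were found for 8 of the 10, 7 of them lower in UV2, and for 73.2% of tested genes, 36.8% lower in UV2. So a call alone does not set these genes apart, and the size of the differences is given beside each. By more than 2-fold, 7 of the 10 were lower in UV2, where 8.81% of tested genes were. The median log2 fold change of the 10 was -1.61, beside -0.01 over all tested genes. The 10 were chosen with earlier results of these data known, which limits both comparisons.

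Levels are depth-scaled counts (CPM, with TMM library factors) and are given for replicates 1, 2 and 3 in that order. A log2 fold change (log2FC) is UV2 minus bEnd.3, with its standard error (SE), and adjusted p-values are from edgeR with Benjamini-Hochberg adjustment over all tested genes. Total expected counts ran from 21306441 to 28748128 per library. No label ties the libraries of a line to separate cultures, so the error given is that between libraries and may be technical. In bulk RNA, fewer cells with a transcript and less of it per cell cannot be told apart. The 8 endothelial markers checked summed to 10725 to 11202 CPM in bEnd.3 libraries and 10900 to 12444 CPM in UV2 libraries. Of these 8, 5 did not pass the test, Pecam1 and Cdh5 among them. Emcn fell from 780 ± 57.2 to 281 ± 29.2 CPM, beyond 2-fold, Eng fell by 0.69 on the log2 scale and Tie1 rose by 0.88. Markers of other cell types were low: the 4 epithelial genes summed to at most 0.501 CPM, the 8 pericyte and smooth muscle genes to at most 7.35 CPM, and the 6 fibroblast genes to 1.57 to 2.85 CPM in bEnd.3, against 7.90 to 16.4 CPM in UV2, most of it Pdgfra. The 5 leukocyte genes summed to 89.7 to 159 CPM in bEnd.3, against 253 to 343 CPM in UV2, nearly all of it Cd68, while Adgre1 was at 0 and Ptprc had 1 count in all libraries together. Epcam, Thy1 and Des were at 0 in every library. Pdgfra and Pdgfrb are also among the receptor kinases counted later. The part of these other markers in the results was not tested.

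Promoter sequences are shown for 3 of the genes because the letters of a relevant motif lie just before their start sites. Capicua is a repressor that sits on genes of this group and is released by ERK, and serum response factor binds the CArG box of genes induced by growth factors. The bases before each start were searched on both strands, 250 bases per gene, for the Capicua octamers (TGAATGAA, TGAATGGA, TCAATGAA or TCAATGGA), the CArG box, an ETS motif (CCGGAAG), an AP-1 motif (TGANTCA), a cAMP response element (TGACGTCA) and a GC box (GGGCGGGG). Sequences are from RefSeq (GRCm38.p6, the assembly of mm10), which held a window for 7 of the 10 genes. They run 5′ to 3′ on the gene's own strand, with motif matches in capitals. The stretch is chr10:99262981-99263230 (plus strand) for Dusp6, chr14:105896820-105897069 (minus strand) for Spry2 and chr19:53528895-53529108 (plus strand) for Dusp5. Those of Dusp6 and Spry2 end at the base before the RefSeq start. That of Dusp5 is cut to 214 bases because a GENCODE transcript starts earlier, so the last bases of its window are not printed, while distances still count from the RefSeq start.
Dusp6: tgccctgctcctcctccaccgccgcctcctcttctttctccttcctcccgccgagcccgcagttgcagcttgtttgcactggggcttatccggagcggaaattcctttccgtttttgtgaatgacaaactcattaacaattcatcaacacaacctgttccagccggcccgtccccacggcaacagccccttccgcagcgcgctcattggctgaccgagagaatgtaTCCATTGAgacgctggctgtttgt
Spry2: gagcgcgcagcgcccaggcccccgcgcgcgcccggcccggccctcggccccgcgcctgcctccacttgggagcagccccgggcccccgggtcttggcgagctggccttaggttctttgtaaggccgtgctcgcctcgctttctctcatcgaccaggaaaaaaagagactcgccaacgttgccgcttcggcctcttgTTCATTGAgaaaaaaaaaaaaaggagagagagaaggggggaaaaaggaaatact
Dusp5: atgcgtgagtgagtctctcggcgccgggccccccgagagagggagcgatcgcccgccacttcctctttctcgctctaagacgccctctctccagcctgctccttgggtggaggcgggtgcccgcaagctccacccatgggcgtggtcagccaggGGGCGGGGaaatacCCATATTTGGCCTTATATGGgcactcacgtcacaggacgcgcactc
The match in Dusp6, TCCATTGA, starts 24 bases before the RefSeq start site, and that in Spry2, TTCATTGA, starts 54 bases before it. Both are Capicua octamers on the opposite strand, which 3.19% of all 32851 windows hold. Spry1, Spred1 and Etv5, which like Dusp6 and Spry2 were lower in UV2, hold no octamer in their windows. Dusp5 has 2 CArG boxes end to end, CCATATTTGG and CCTTATATGG, which start 82 and 72 bases before the start site, and a GC box starting 96 bases before it. A CArG box was found in 1.47% of all windows and the GC box in 16.1%. The letters of the other motifs were not in the windows of these 7 genes. A match describes the sequence only, and binding was not measured.

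Dusp6 encodes the cytoplasmic phosphatase that is selective for ERK (chromosome 10, 99263231 to 99267489). It had 510, 546 and 623 CPM in the bEnd.3 libraries and 52.1, 47.8 and 53.2 CPM in the UV2 libraries. Every bEnd.3 library lay far above every UV2 library, and the values within a line were close together, with a coefficient of variation of 10.3% in bEnd.3 and 5.64% in UV2. The fall was 11.0-fold (log2FC -3.45 with SE 0.10, adjusted p = 1.69e-07), and only 3.03% of tested genes had a lower log2 fold change. Per kilobase of exon, Dusp6 was above 98.5% of tested genes in bEnd.3 and above 73.8% in UV2.

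Dusp4 and Dusp5 encode nuclear phosphatases of ERK, and neither fell. Dusp4 (chromosome 8, 34807610 to 34819894) had 32.8, 32.0 and 24.6 CPM in bEnd.3, against 47.5, 31.7 and 21.1 CPM in UV2. The UV2 values enclosed those of bEnd.3, with replicate 1 above and replicate 3 below all of them. Its log2 fold change was 0.17 (SE 0.27, 95% interval -0.58 to 0.91, adjusted p = 0.609). The sign turned, to -0.17, without UV2 replicate 1. Dusp5 (chromosome 19, 53529145 to 53541809) had 5.56, 3.50 and 3.97 CPM in bEnd.3, against 6.93, 8.24 and 6.82 CPM in UV2. These ranges did not overlap, and Dusp5 was 1.69-fold higher in UV2 (log2FC 0.76 with SE 0.20, adjusted p = 0.00951), a difference that did not pass the test for more than 2-fold. An antisense RNA overlaps 547 bases of its exons, and the strand setting of the counting is not given in the sources used here.

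All 3 Sprouty genes were lower in UV2 in every library, and Spry4 by the most. Sprouty proteins are membrane-bound inhibitors that block the step from receptors to RAS and RAF. Spry4 (chromosome 18, 38586247 to 38601347) had 74.6, 43.5 and 38.2 CPM in bEnd.3, against 3.68, 4.17 and 5.55 CPM in UV2, 11.6-fold lower (log2FC -3.53 with SE 0.30, adjusted p = 2.90e-05). Its bEnd.3 libraries were spread, replicate 1 being 1.95 times replicate 3, yet the lowest of them was far above the highest of UV2. Spry1 (chromosome 3, 37639947 to 37644599) had 14.3, 17.3 and 21.05 CPM in bEnd.3, against 6.04, 5.48 and 6.67 CPM in UV2 (log2FC -1.53 with SE 0.17, adjusted p = 0.000112). Spry2 (chromosome 14, 105891947 to 105896819) had 24.98, 21.6 and 22.4 CPM in bEnd.3, against 9.21, 9.31 and 10.6 CPM in UV2 (log2FC -1.24 with SE 0.11, adjusted p = 3.48e-05). Spry2 varied least of the 10 within bEnd.3, with a coefficient of variation of 7.68%, and by 7.79% within UV2. Genes on chromosome 14 were shifted upwards in UV2, with a median log2 fold change of 0.71 over 318 genes with a log2 CPM above 3, and relative to that median Spry2 stood at -1.96. The call of more than 2-fold was lost for Spry2 in DESeq2 (adjusted p = 0.476), in limma-voom (adjusted p = 0.163) and without bEnd.3 replicate 1 or 3 or UV2 replicate 1 or 2, at adjusted p-values from 0.0520 to 0.123. It was lost for Spry1 in limma-voom (adjusted p = 0.0713). A GENCODE transcript of no assigned class on the other strand shares 710 exon bases with Spry1.

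The Spred genes, whose proteins bind neurofibromin and bring it to RAS, parted from each other. Spred1 (chromosome 2, 117121071 to 117182279) had 117.7, 91.7 and 82.96 CPM in bEnd.3, against 31.5, 31.9 and 27.9 CPM in UV2, without overlap. It was 3.20-fold lower in UV2 (log2FC -1.68 with SE 0.14, adjusted p = 2.41e-05). Spred2 (chromosome 11, 19924442 to 20024026) had 25.5, 20.6 and 17.9 CPM in bEnd.3, against 20.8, 21.3 and 13.2 CPM in UV2, and the 2 ranges ran into each other. Its log2 fold change was -0.21 (SE 0.21, 95% interval -0.78 to 0.36, adjusted p = 0.390).

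The PEA3 factors were at 1.26 CPM or less in every UV2 library, and Etv4 and Etv5 had the largest differences of the 10. Etv5 (chromosome 16, 22381313 to 22439570) had 14.4, 12.9 and 9.98 CPM in bEnd.3, against 0.972, 1.26 and 0.347 CPM in UV2, 14.8-fold lower (log2FC -3.88 with SE 0.35, adjusted p = 4.60e-05). Etv4 (chromosome 11, 101769747 to 101785310) had 9.37, 4.60 and 1.87 CPM in bEnd.3, a 5.02-fold range within the line, against 0.254, 0.145 and 0.0771 CPM in UV2, from 6, 3 and 2 counts. The lines did not overlap, and Etv4 was 32.3-fold lower in UV2 (log2FC -5.01 with SE 0.77, adjusted p = 0.000701). Without replicate 1 of bEnd.3, the library with the highest Etv4, the log2 fold change was -4.31 (adjusted p = 0.000456). Etv1, the third PEA3 factor and not one of the 10, was low in both lines, with 2.15, 1.22 and 1.97 CPM in bEnd.3, against 0, 0.291 and 0.154 CPM in UV2 (log2FC -3.59 with SE 0.60, adjusted p = 0.00107). Its log2 fold change ranged from -4.39 without UV2 replicate 2 to -3.00 without UV2 replicate 1.

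**Figure D1:**
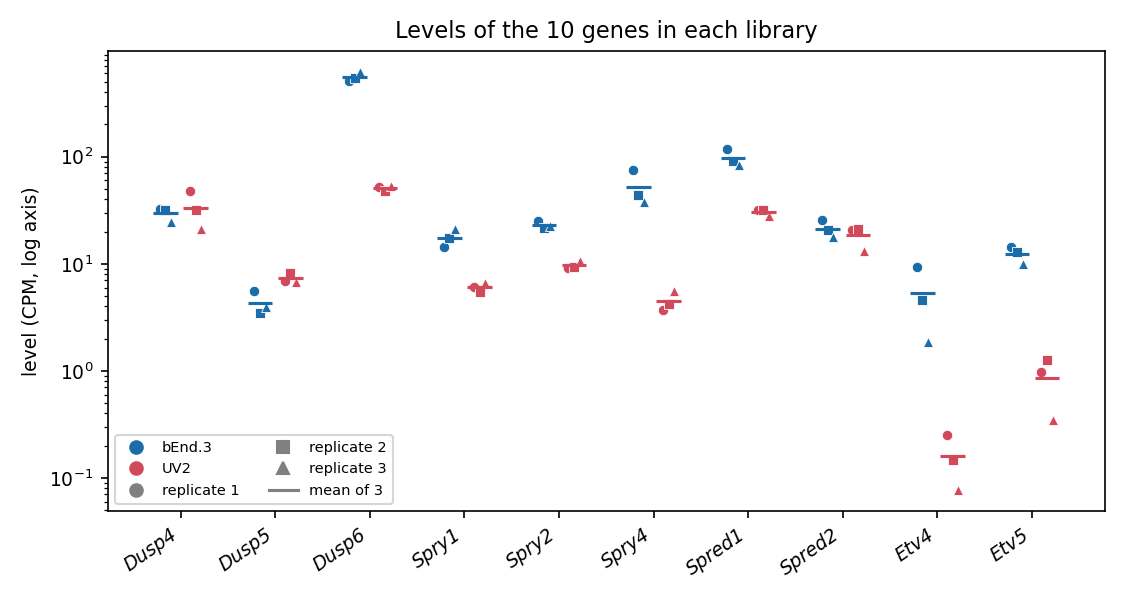
Level of each of the 10 genes in every library, in CPM on a log axis; blue marks are bEnd.3 and red marks UV2, the mark's shape gives the replicate and the bar the mean of 3 libraries. All blue marks lie above all red ones for 7 genes, Dusp5 has the reverse, and Dusp4 and Spred2 overlap.

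**Figure D2:**
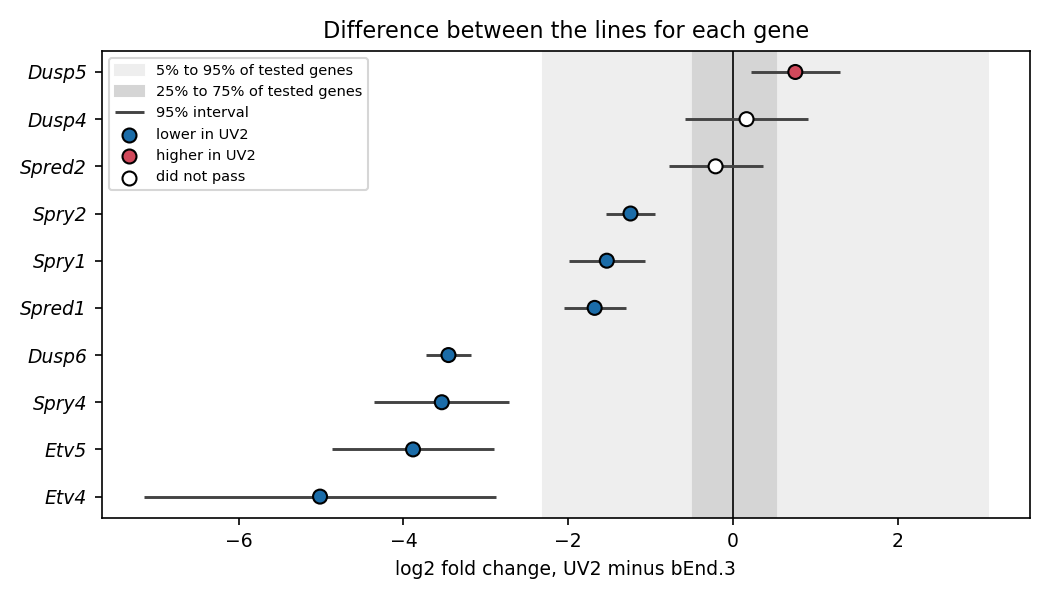
Log2 fold change (UV2 minus bEnd.3) of each gene with its 95% interval, blue where lower, red where higher and open where the test was not passed; grey bands hold the middle 50% (-0.48 to 0.53) and 90% (-2.31 to 3.09) of tested genes. Dusp6, Spry4, Etv5 and Etv4 lie to the left of both bands.

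Levels of different genes were compared per kilobase of exon (the union of GENCODE exons). In bEnd.3, Dusp6 led with 179 ± 18.4 CPM per kb (SD, n = 3), more than 10 times the next, Spred1, at 14.4 ± 2.66, whose libraries overlapped those of Spry4. Spry2, Spry4 and Dusp4 followed at 11.0 ± 0.846, 10.95 ± 4.14 and 10.9 ± 1.66 CPM per kb and could not be ordered within their spread. Below them came Spry1 at 6.03 ± 1.16 and Spred2 at 4.62 ± 0.834, which overlapped, then Etv5 at 3.04 ± 0.553 CPM per kb, and last Dusp5 at 1.76 ± 0.437 and Etv4 at 1.70 ± 1.22, again within each other's spread. The libraries of Etv5 and Etv4 overlapped too. In UV2 Dusp6 no longer stood apart: it had 16.3 ± 0.920 CPM per kb and Dusp4 12.2 ± 4.86, with overlapping libraries. Spry2, Spred1 and Spred2 stood next at 4.64 ± 0.362, 4.49 ± 0.327 and 3.99 ± 0.978 CPM per kb, a difference within their spread. Dusp5 at 2.96 ± 0.319 overlapped Spred2 and was above Spry1 at 2.09 ± 0.205 and Spry4 at 0.939 ± 0.205, and Etv5 and Etv4 closed the order at 0.210 ± 0.114 and 0.0511 ± 0.0287 CPM per kb. With principal transcript lengths, Dusp5 and Etv4 changed places in bEnd.3, as did Spry1 and Spred2, and in UV2 Spred2 stood before Spred1 and Spry2.

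Each family's make-up was taken from the same levels. Of the summed level per kb of the 3 phosphatases, Dusp6 made up 93.3% ± 1.52 in bEnd.3 and 52.6% ± 8.52 in UV2, and Dusp4 5.76% ± 1.31 and 37.8% ± 9.57 (SD, n = 3). The sum itself was 6.08 times as high in bEnd.3. Among the Sprouty genes Spry4 took 38.3% ± 8.87 in bEnd.3 and 12.2% ± 1.53 in UV2, and Spry2 39.6% ± 2.46 and 60.6% ± 1.19. Spred1 took 75.7% ± 0.453 of the sum of Spred1 and Spred2 in bEnd.3 and 53.4% ± 4.78 in UV2. With the length of the principal transcript in place of all exons these Spred1 shares were 68.4% and 44.4%. Spred3, which belongs to the same family but is not one of the 10 and was singled out after its values were seen, fell from 141 ± 16.3 to 67.3 ± 4.88 CPM (log2FC -1.07 with SE 0.10, adjusted p = 5.37e-05). The sum of the 2 PEA3 factors was 18.2 times as high in bEnd.3.

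Ratios of 2 genes within a library depend little on how libraries were scaled, and 6 such ratios were compared by a two-sided exact permutation test, which with 3 libraries against 3 cannot go below p = 0.10. The log2 ratio of Dusp4 to Dusp6 was -3.95, -4.09 and -4.66 in bEnd.3 and -0.13, -0.59 and -1.34 in UV2, and that of Dusp5 to Dusp6 was on average 4.21 higher in UV2. The log2 ratio of Spry4 to Spry2 was 2.24 lower in UV2 and that of Spred1 to Spred2 1.44 lower. For these 4 ratios bEnd.3 and UV2 libraries were apart, and each had p = 0.10, the smallest the exact test allows, and an adjusted p of 0.15. The ratios of Spry1 to Spry2 (exact p = 0.40, adjusted p = 0.48) and of Etv4 to Etv5 (exact p = 0.50, adjusted p = 0.50) overlapped between the lines. Etv4 had only 6, 3 and 2 counts in UV2, so its ratio to Etv5 there depends on the prior count of 2 added before taking logs.

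**Figure D3:**
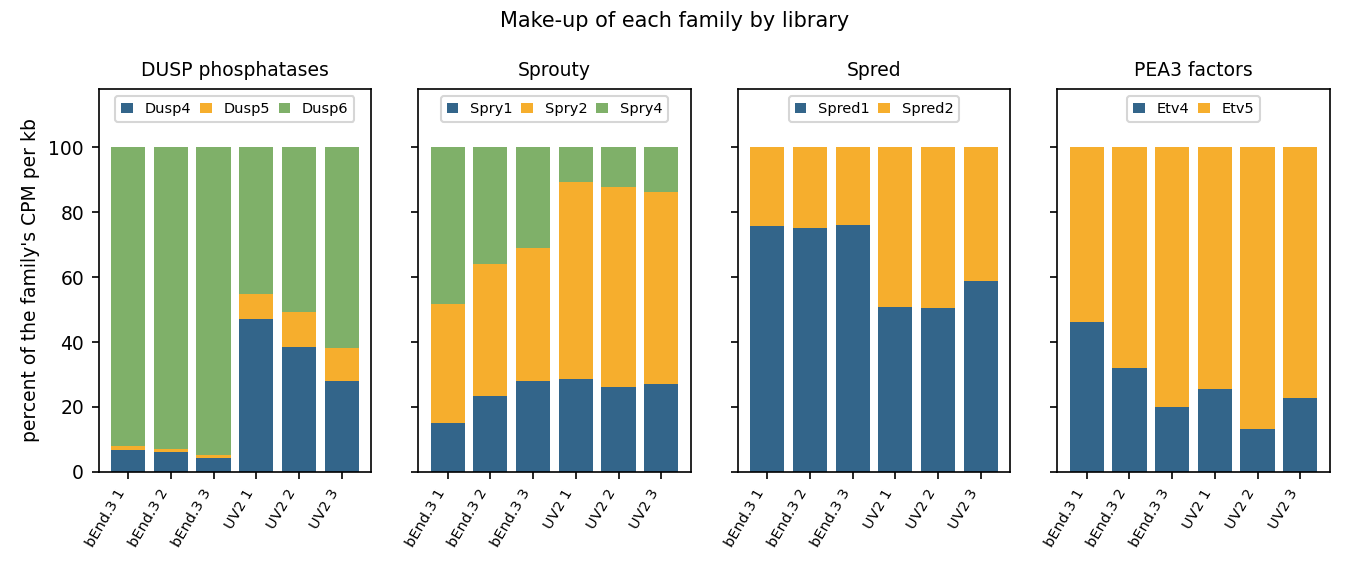
Share of each gene in its family's summed CPM per kb of exon, in percent, for each of the 6 libraries (bar segments, stacked to 100). Dusp6 fills over 90% of every bEnd.3 bar in the first panel and between 45.3% and 61.9% of the UV2 bars.

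Calls among other genes of the pathway went in both directions, and their shares are to be read against the 33.3% of all tested genes that were lower in UV2 and the 33.9% that were higher. Of 23 genes of the cascade from adaptors and RAS to ERK and its kinases, 10 were lower in UV2, 6 higher and 7 without a call, with a median log2 fold change of -0.10. Mapk3, which encodes ERK1, had 209 ± 11.2 CPM in bEnd.3, against 343 ± 11.5 CPM in UV2, 1.64-fold higher (adjusted p = 5.89e-05). The adaptor gene Gab1 had the highest log2 fold change of this list (1.84), and Rps6ka1, a kinase downstream of ERK, the lowest (-4.38, from 41.0 ± 5.82 to 1.96 ± 0.108 CPM). Among 13 tested receptor tyrosine kinases 6 were higher and 3 lower in UV2, with a median of 0.41. Fgfr1 rose from 267 ± 30.5 to 402 ± 41.6 CPM (adjusted p = 0.00185), Pdgfrb had the highest log2 fold change (3.94, at 4.36 ± 1.27 CPM in UV2) and Flt1, a VEGF receptor, the lowest (-1.76). The other VEGF receptors did not fall. Kdr had 1554 ± 240 CPM in bEnd.3, against 1599 ± 301 CPM in UV2, and did not pass (adjusted p = 0.837). Flt4 rose from 212 ± 18.4 to 446 ± 29.1 CPM (adjusted p = 2.67e-05).

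Among other inhibitors the calls were near those shares of all genes. Of 15 further inhibitors of RAS and ERK signalling 6 were higher and 5 lower in UV2 (median -0.09). Errfi1, a feedback inhibitor of EGF receptors, rose from 10.9 ± 0.486 to 107 ± 10.3 CPM (log2FC 3.30 with SE 0.09, adjusted p = 1.65e-07), and Rasa4, a RAS GTPase-activating protein, fell from 30.2 ± 10.7 to 1.07 ± 0.208 CPM (log2FC -4.83 with SE 0.33, adjusted p = 1.10e-05). Of 9 other MAP kinase phosphatases 3 were higher and 3 lower (median 0.39). Dusp2, another nuclear phosphatase, rose from 5.10 ± 0.961 to 121 ± 39.3 CPM (log2FC 4.56 with SE 0.26, adjusted p = 4.50e-06), opposite to Dusp6, and Dusp3 had the lowest log2 fold change (-2.20). Dusp1 had 195 ± 57.5 CPM in bEnd.3, against 152 ± 43.1 CPM in UV2 and did not pass (adjusted p = 0.240), but passed with the replicate number as a block (log2FC -0.36, adjusted p = 0.00772).

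Among genes that act on the PEA3 factors or on ETS targets, 7 of 12 were lower in UV2 and 2 higher (median -0.53). Cic, which encodes Capicua, fell from 244 ± 21.9 to 157 ± 2.86 CPM (log2FC -0.64 with SE 0.08, adjusted p = 0.000214). Trib1, an adaptor of the ubiquitin ligase COP1, had the highest log2 fold change (1.44) and Etv1 the lowest. The gene of COP1 itself, which marks PEA3 proteins for degradation and is listed under its older symbol Rfwd2, was singled out after its values were seen. It fell from 117.9 ± 0.949 to 22.1 ± 1.43 CPM (log2FC -2.41 with SE 0.07, adjusted p = 1.75e-07).

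**Figure D4:**
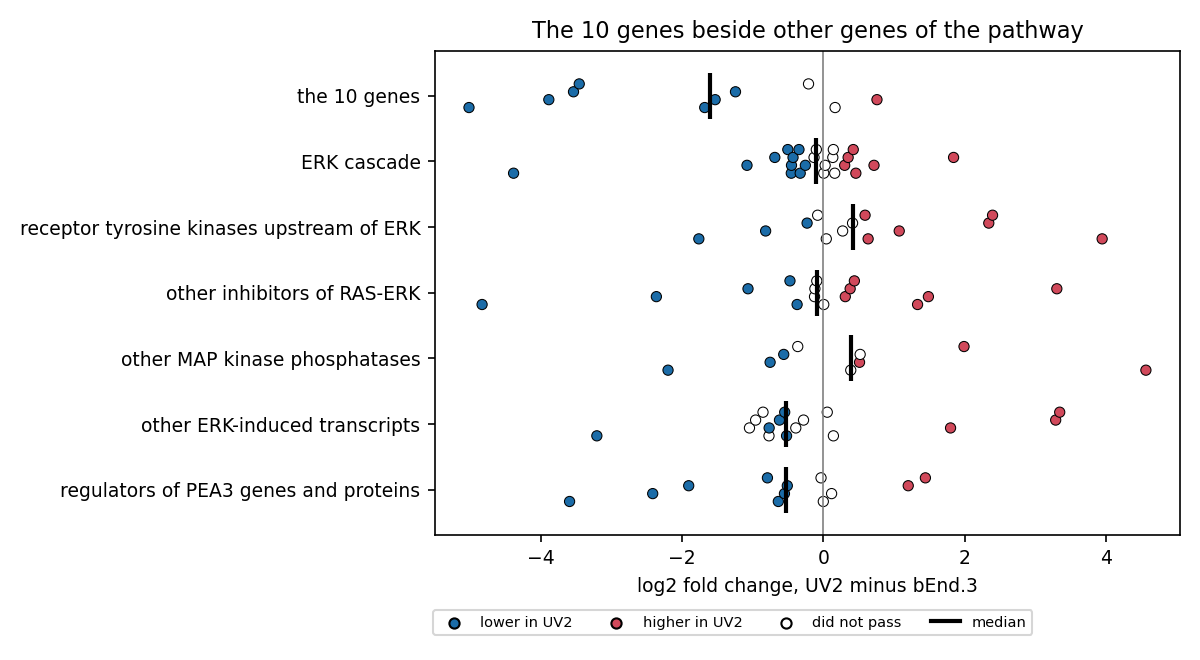
Log2 fold change (UV2 minus bEnd.3) of the 10 genes and of the tested genes of 6 pathway lists, 1 dot per gene, blue where lower, red where higher and open where the test was not passed; the bar is the list's median. The median of the 10 is -1.61, and those of the other lists lie between -0.53 and 0.41. The 10 and the lists were chosen with earlier results of these data known.

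Transcripts that ERK induces elsewhere were a mixed group here: of 16 tested, 5 were lower in UV2, 3 higher and 8 without a call (median -0.53). With the replicate number as a block 9 were lower, and 3 without bEnd.3 replicate 2 or UV2 replicate 1. Ccnd1, the cyclin D1 gene, had 959, 684 and 551 CPM in bEnd.3, against 110, 85.3 and 43.4 CPM in UV2 (log2FC -3.20 with SE 0.35, adjusted p = 0.000126). Epha4, an ephrin receptor gene, had the highest log2 fold change (3.34), and Phlda1 did not pass (12.7 ± 2.27 against 13.97 ± 3.12 CPM, adjusted p = 0.536).

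Immediate early genes answer within minutes to many stimuli, and of that list Egr1, Fos, Fosb, Junb and Ier2 were singled out after their values were seen. Others of this kind in the list went both ways. Egr3 (log2FC 3.28, adjusted p = 0.00243) and Ier3 (log2FC 1.80, adjusted p = 0.000458) were higher in UV2. Myc (log2FC -0.62, adjusted p = 0.00587) and Maff (log2FC -0.55, adjusted p = 0.0263) were lower. Fosl1 did not pass, and was highest in replicate 1 in bEnd.3 and in replicate 2 in UV2. Egr1 and Fos varied more between libraries of a line than any of the 10 did. Egr1 had 84.5, 9.65 and 297 CPM in bEnd.3, against 70.5, 2.28 and 117 CPM in UV2, and Fos had 17.2, 2.97 and 122 CPM in bEnd.3, against 8.83, 1.11 and 73.1 CPM in UV2. In both lines replicate 3 was the highest and replicate 2 the lowest, also for Fosb, Junb, Ier2 and Dusp1. The highest library of a line was 30.8 times the lowest in bEnd.3 and 51.1 times in UV2 for Egr1. For Dusp6 these ratios were 1.22 and 1.11, and the widest among the 10 was that of Etv4 in bEnd.3, 5.02. Egr1 (adjusted p = 0.483), Fos (adjusted p = 0.645) and Junb (adjusted p = 0.234) did not pass the test between the lines. Each was nevertheless lower in UV2 than in bEnd.3 for every replicate number. No label ties same-numbered libraries of the lines to each other, and their shared order was seen in these same genes. With the replicate number as a block all 3 were called lower, Egr1 at log2FC -1.04 (adjusted p = 0.0214), Fos at -0.90 (adjusted p = 0.00110) and Junb at -0.81 (adjusted p = 0.00203). Without bEnd.3 replicate 3 and with no block, the log2FC was 0.43 for Egr1 and 1.47 for Fos. Dusp6, Spry4, Etv4 and Etv5 were low in every UV2 library, the one with the highest Egr1 and the one with the lowest included. Etv5 had 0.347 CPM in the former and 1.26 CPM in the latter. A link to Egr1 was not tested.

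**Figure D5:**
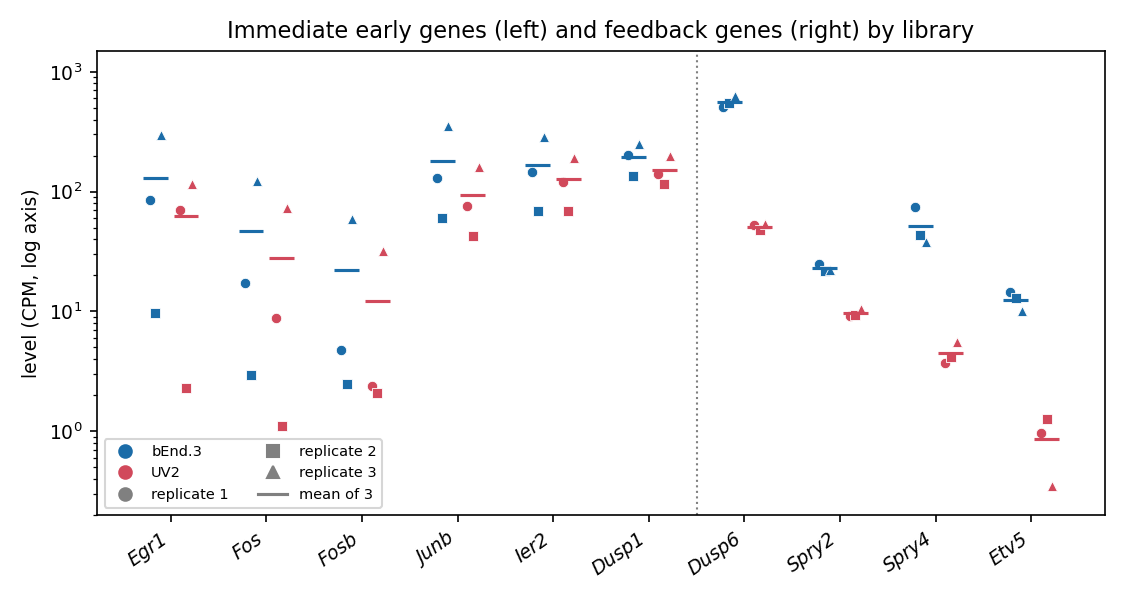
CPM on a log axis of 5 immediate early genes and Dusp1 (left of the dotted line) and 4 feedback or PEA3 genes (right). Every library is shown, blue for bEnd.3 and red for UV2, with the shape giving the replicate and the bar the mean of 3. Triangles (replicate 3) are highest and squares (replicate 2) lowest for each gene on the left in both lines, while Dusp6 spans only 510 to 623 CPM in bEnd.3, against 47.8 to 53.2 CPM in UV2.

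Within bEnd.3 most, but not all, of the 10 genes were highest in the same library. Replicate 1 had the highest Dusp4, Dusp5, Spry2, Spry4, Spred1, Spred2, Etv4 and Etv5, and the lowest Dusp6 and Spry1. In UV2, replicate 3 had the lowest Dusp4, Dusp5, Spred1, Spred2, Etv4 and Etv5 and the highest Dusp6, Spry1, Spry2 and Spry4. With 3 libraries to a line these are descriptions only.

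Genes whose profile over the 6 libraries was nearest to that of a member were found by the root mean square difference between gene-centred log2 CPM values. Such nearness mainly reflects a like difference between the lines, and shared regulation was not tested. Nearest to Dusp6 were Fam131a (difference 0.11), Zkscan7 (0.12) and Map4k1 (0.12). Zkscan7 had only 0.900 CPM in bEnd.3, against 0 in UV2 (log2FC -7.48), so its nearness depends on how 0 counts are handled on the log scale. Nearest to Spry2 were Snap23 (0.04), Pvrl2 (0.06) and Nrros (0.06), and nearest to Etv5 were Gtse1 (0.31), Sulf2 (0.32) and Csf2ra (0.32). Etv5 had 23, 26 and 9 counts in UV2, and Csf2ra was at 0.118 CPM there. The differences from Etv5 thus depend in part on how low counts are handled.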

How the data were processed

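The deposited table holds expected counts per gene symbol, not normalized, made by the authors with Trim Galore, STAR and RSEM against mm10, per the submitters' processing notes. Tool versions, annotation and strand setting were not given in the sources used here. All 60 values of the 10 genes were whole numbers, and others were rounded. Genes were kept by edgeR's filterByExpr, scaled by TMM and fitted with edgeR 4.0.16 (R 4.3.3), quasi-likelihood test, line as the only term. Calls were at an adjusted p under 0.05 and changes beyond 2-fold came from glmTreat. SE is the absolute log2 fold change over the square root of F, and 95% intervals use 4 degrees of freedom. Log2 ratios used a prior count of 2. Exon lengths came from GENCODE vM21 on GRCm38 (96.2% of tested genes matched by symbol) and positions from the RefSeq table of GRCm38.p6. Alternatives used DESeq2 1.42.0 and limma 3.58.1. The procedure was tested on simulated data in which far fewer genes differed than were called here. So wide a difference between groups was not simulated. Figures were drawn with matplotlib 3.10.9.

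Samples were grouped by the line in their titles. The members and lists were chosen with earlier results of these data known. Named genes were the 10, the called gene with the highest and the lowest log2 fold change of each pathway list (at least 1 CPM in the higher line), Mapk3, Dusp1, Cic, Fgfr1, Ccnd1 and Phlda1, and the 3 nearest profiles to Dusp6, Spry2 and Etv5, leaving out Gm and Rik genes. A further gene of that rule is not reported here. Others were named after their values were seen. Replicates of a line differed by a chi-square of 11.3 to 38.4 per degree of freedom, and were each kept as 1 sample. Sequenced reads are not independent molecules, and the SE covers the spread between libraries only.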

Additional observations from a re-analysis of the deposited data

How the results depend on the processing

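The calls of the 10 genes, 7 lower and 1 higher, had the same numbers under no filter or one of 1 CPM in 3 libraries, under total counts or RLE size factors, in DESeq2 and limma-voom, with a replicate block and without each library in turn. Beyond 2-fold, 7 were lower, 6 in DESeq2, 5 in limma-voom and 6 to 7 with a library left out. Dusp4, which did not pass, ranged from -0.17 to 0.42 in log2 fold change with a library left out. Spry2 moved to -1.96 with the median of its chromosome removed. The log2 ratio of Etv4 to Etv5 differed by -0.39 between the lines and by -0.83 to 0.041 with a library left out. Of the ERK-induced transcripts 5 were lower, 9 with the replicate block and 3 to 5 with a library left out. Phlda1, which did not pass, ranged from -0.042 to 0.30 with a library left out. So did Egr1 from -1.83 to 0.43, Fos from -3.22 to 1.47, Fosb from -3.31 to 1.75 and Ier2 from -0.81 to 0.24, each lowest without UV2 replicate 3 and highest without bEnd.3 replicate 3. The cause of these moves was not tested. Same-numbered libraries of the lines had correlated deviations from their line means (0.085, 0.16 and 0.20 for numbers 1, 2 and 3), and every library correlated best with its own number, a hint from the data and not from the labels. The block gave 4380 genes higher and 4302 lower, beside 4306 and 4232. Total counts gave 3918 and 4716 and shifted the median log2 fold change by -0.07. The family shares by principal transcript length and the alternatives for the counts beyond 2-fold and for genes named late were chosen after seeing the data. Etv4 in UV2 rests on 2 to 6 counts per library, so its log2 ratio to Etv5 there depends on the prior count.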
